A study of Homo sapiens with 27 samples.

Results

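The 10 genes described here encode CREB3L1, CREB3L2, CREB3L4, XBP1, ATF6, ATF4, DDIT3, HSPA5, DNAJB9 and HERPUD1, transcription factors of endoplasmic reticulum (ER) stress and the chaperones and degradation factors they control. They were taken by gene name from tables of gene-level read counts, and all 10 were listed in each of the 6 tables, which together list 32719 genes. In the tables' coordinates, of build hg19 per the submitters' notes, the genes of the CREB3L factors and XBP1 span CREB3L1 at chr11:46299212-46342972 (plus strand), CREB3L2 at chr7:137559725-137686813 (minus strand), CREB3L4 at chr1:153940010-153946839 (plus strand) and XBP1 at chr22:29190543-29196585 (minus strand). RNA sequencing was done in 27 libraries from 3 human breast cancer cell lines, with 9 groups of 3. T47D, SKBR3 and MDA-MB-453 cells were each reverse transfected with a SMARTPOOL of siRNAs against TLE3 (siTLE3), with a SMARTPOOL against FOXA1 (siFOXA1) or with a non-targeting siRNA (siNS), and total RNA was taken after 48 h. Every group, siNS included, was therefore transfected. TLE3 is a Groucho-family corepressor, FOXA1 is a pioneer factor of luminal breast epithelium, and the series asked which transcripts depend on them in luminal breast cancer cells. The labels call the libraries of a group biological replicates 1 to 3. Separate cultures are not named there, so p-values measure only the spread between these libraries.

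Secretory and membrane proteins fold in the ER. When unfolded proteins build up, 3 sensors respond: IRE1 (gene ERN1) splices XBP1 mRNA into the form that encodes an active factor, ATF6 is cut out of the membrane by the Golgi proteases encoded by MBTPS1 and MBTPS2, and PERK (gene EIF2AK3) slows translation while favouring that of ATF4. The CREB3L proteins are membrane-anchored factors of the ATF6 type that pass through the same proteases and serve secretory capacity and ER-to-Golgi transport. XBP1 is known for high expression in luminal breast cancer. Counts per gene measure mRNA and record neither splicing, cleavage nor translation.

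The libraries held 15968223 to 26208135 counted reads. TLE3 averaged 36.3, 34.7 and 30.1 CPM (reads of a gene scaled to the same library total) in siTLE3 cells of T47D, SKBR3 and MDA-MB-453, against 128, 119 and 148 CPM in siNS cells. FOXA1 averaged 81.1, 85.8 and 133 CPM in siFOXA1 cells, against 366, 411 and 744 CPM in siNS cells. Each targeted transcript fell in all 3 lines, but in some lines the siRNAs also moved the other one. With siTLE3, FOXA1 was not called in SKBR3, at 0.40 (SE 0.14, edgeR adjusted p = 0.135), or MDA-MB-453, at 0.034 (SE 0.065, edgeR adjusted p = 0.74). Nor was TLE3 with siFOXA1 in SKBR3, at 0.085 (SE 0.092, edgeR adjusted p = 0.562). FOXA1 was at 533 CPM in T47D siTLE3 cells, a rise of 0.54 (SE 0.065, edgeR adjusted p = 9.08e-06). TLE3 rose by 0.22 (SE 0.074, edgeR adjusted p = 0.0212) in T47D siFOXA1 cells, a call lost without siFOXA1 2, siNS 2 or siNS 4, and was at 85.5 CPM in MDA-MB-453 siFOXA1 cells, a change of -0.79 (SE 0.071, edgeR adjusted p = 2.86e-08). The epithelial genes EPCAM, KRT8, KRT18 and KRT19 were at 229 CPM or more in every library, while CDH1 was at 0.134 to 0.877 CPM in SKBR3, and PTPRC, LYZ, PDGFRB and DCN stayed at or below 0.462 CPM wherever they were listed. CDH5, an endothelial gene, was at 5.18 to 18.2 CPM in SKBR3, and COL1A1, a fibroblast gene, at 14.7 to 188 CPM over the lines. In SKBR3, library siTLE3 1 differed by more than 0.5 log2 units from the mean of the other 2 of its group for 24.6% of genes with at least 10 CPM, and library siNS 3 for 35.9%, against at most 7.37% in any other library.

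The letters just before the start of transcription were searched for exact matches to classical stress elements. RefSeq promoters (GRCh38.p14, 250 bases before each start) were in the table for all 10 members, with 14 promoters in all, and 4 are shown because they hold a match, in capitals. The ER stress response element, CCAAT and CCACG with 9 bases between them, is bound by ATF6 together with NF-Y. The second ER stress response element, ATTGG and CCACG with 1 base between them, is known from HERPUD1, the C/EBP-ATF element TGATGCAA is bound by ATF4, and TGACGTCA is the cAMP response element.
HSPA5 (chr9:125241344-125241593, minus strand): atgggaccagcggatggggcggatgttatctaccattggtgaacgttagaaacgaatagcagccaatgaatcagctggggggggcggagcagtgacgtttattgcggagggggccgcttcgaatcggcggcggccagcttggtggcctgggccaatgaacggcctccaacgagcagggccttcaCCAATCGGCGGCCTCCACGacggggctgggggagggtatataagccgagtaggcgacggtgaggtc
XBP1 (chr22:28800570-28800819, minus strand): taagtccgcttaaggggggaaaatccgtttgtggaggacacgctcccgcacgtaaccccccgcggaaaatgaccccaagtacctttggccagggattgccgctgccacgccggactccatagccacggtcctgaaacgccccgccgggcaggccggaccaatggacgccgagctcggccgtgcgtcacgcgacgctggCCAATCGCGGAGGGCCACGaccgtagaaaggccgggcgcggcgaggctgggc
HERPUD1 (chr16:56931892-56932141, plus strand): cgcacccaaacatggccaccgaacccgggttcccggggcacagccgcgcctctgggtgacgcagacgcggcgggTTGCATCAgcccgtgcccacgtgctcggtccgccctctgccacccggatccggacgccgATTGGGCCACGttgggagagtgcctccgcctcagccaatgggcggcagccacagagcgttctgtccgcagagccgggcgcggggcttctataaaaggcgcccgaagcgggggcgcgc
CREB3L2 (chr7:138002087-138002336, minus strand): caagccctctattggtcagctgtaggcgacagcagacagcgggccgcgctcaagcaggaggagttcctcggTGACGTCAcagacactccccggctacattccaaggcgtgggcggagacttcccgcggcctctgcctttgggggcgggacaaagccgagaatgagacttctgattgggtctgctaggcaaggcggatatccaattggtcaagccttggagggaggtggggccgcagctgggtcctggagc
Counted from the start site, the ER stress response element lay at -66 to -48 in HSPA5 and at -52 to -34 in the first of the XBP1 promoters, and 0.074% of all 35116 promoters in the table hold one. HERPUD1 held the second element at -117 to -107 (0.0513% of promoters) and the C/EBP-ATF element on the opposite strand at -176 to -169 (0.772%). CREB3L2 held the cAMP response element at -179 to -172 (1.65%). No member held the unfolded protein response core TGACGTGG (0.612% of promoters) or the forkhead word TGTTTAC (2.98%) in these 250 bases. Both strands were searched, and no matches overlapped. Only exact matches were counted, so a member without one may still hold a variant. DDIT3 and HERPUD1, for example, held CCAAT followed after 9 bases by CCACT and CCACA in place of CCACG. The second element and the forkhead word were added to the search after values had been seen. All are letters in a window and not shown binding sites.

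Counts of members that changed differed widely between lines and siRNAs. A change was called at an adjusted p under 0.05 in edgeR's quasi-likelihood test, with Benjamini-Hochberg adjustment over all genes of the table, and all fold changes are log2 with their standard error (SE). In T47D siTLE3 cells 8 members rose and 2 were not called, where 51.9% of all genes were called and 25.3% rose. The count was 6 without the low-count filter (ATF6 and HSPA5 lost) and 7 in a fit of all 9 T47D libraries (HSPA5 lost). In T47D siFOXA1 cells 3 rose and 3 fell, against 26% and 26.8% of all genes. In MDA-MB-453, siTLE3 cells had 4 risen members and 1 fallen (15.7% and 16.3% of all genes), and siFOXA1 cells had 1 risen and 5 fallen (23.4% and 23.7%). In SKBR3 siFOXA1 cells 4 members fell, against 8.75% of all genes.

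In SKBR3 siTLE3 cells edgeR called 0 of the 10 members, and 5.66% of all genes (3.67% rose and 1.99% fell). At an unadjusted p under 0.05 there was 1, CREB3L2, which was also the 1 that DESeq2 called. Without both libraries that stood apart, siTLE3 1 and siNS 3, 3 members were called (CREB3L2, ATF4 and XBP1) among 4161 genes, against 814 genes with all libraries. These libraries were picked for lying far from their own groups. Leaving them out narrows the spread by itself, so calls gained without them add no support. It also leaves differently numbered libraries in the groups, although numbers 1 and 3 of siTLE3 and siNS deviated together (correlations 0.721 and 0.805). Fold changes can therefore move too, and ATF4 went from 0.14 with all libraries to 0.36 without both. For SKBR3 siFOXA1 cells, leaving out siNS 3 gave 6 members instead of 4, and leaving out any 1 of siFOXA1 1, 2 or 3 gave 2, CREB3L1 and XBP1. The count over all genes moved likewise, from 2746 to 6675 without siNS 3 and to 1266 to 1292 without a siFOXA1 library. The SKBR3 siTLE3 count stayed at 0 when any 1 library was left out, and the T47D and MDA-MB-453 counts against siNS stayed within 1.5 times. Both siRNAs of a line were set against the same siNS libraries, so their values are given side by side and not compared through siNS.

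**Figure D1:**
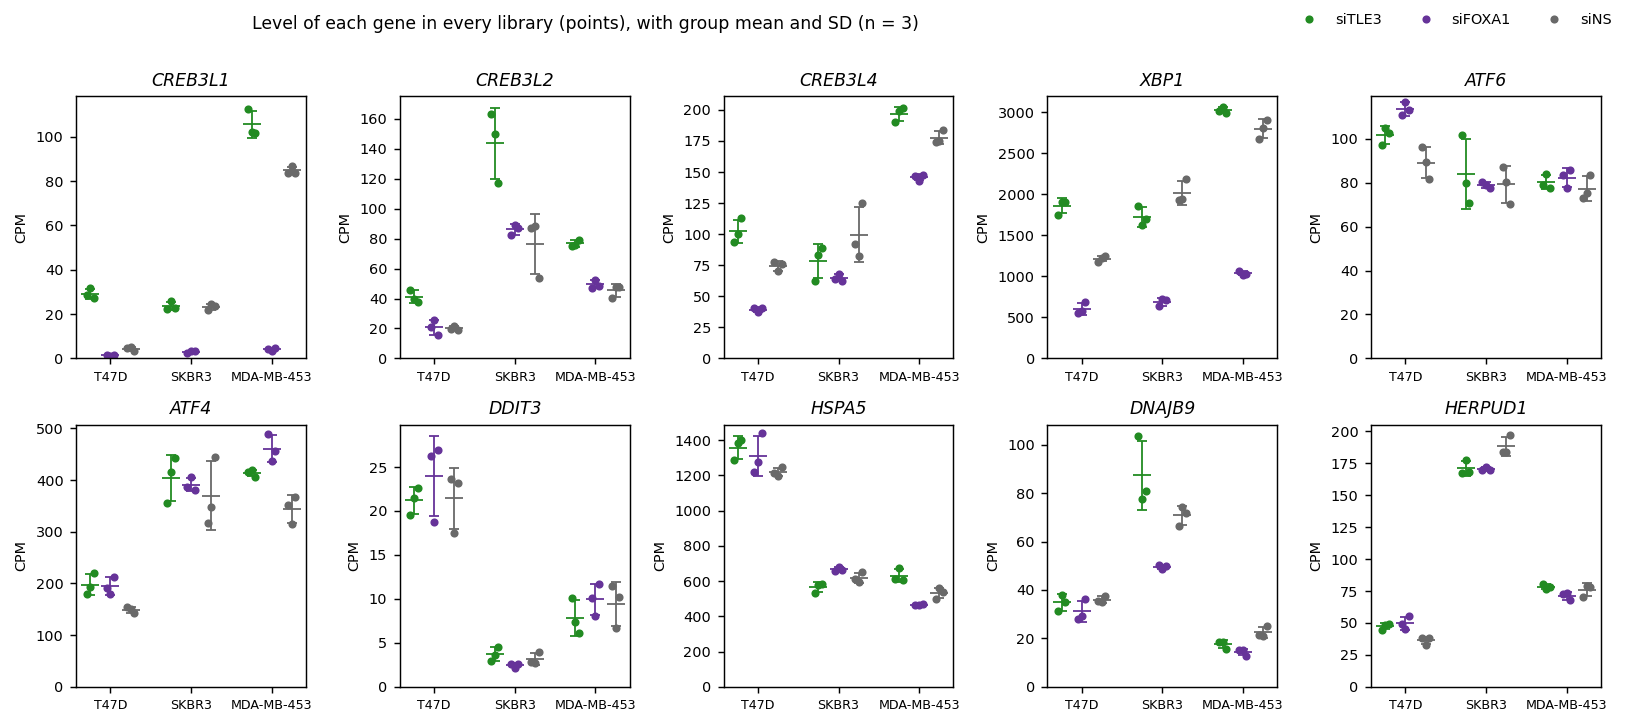
Levels of the 10 genes in every library, in CPM on a linear axis from 0, by line and siRNA; points are libraries and bars are group means with their SD (n = 3). CREB3L1 and XBP1 are lowest in the siFOXA1 cells of each line, and CREB3L2 is highest in the siTLE3 cells.

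CREB3L1 (OASIS) is a CREB3L factor known in bone and glia for driving collagen and secretory genes, and it had the widest range of the 10. In T47D it had 28.8, 31.7 and 27.1 CPM in siTLE3 cells and 1.31, 1.15 and 1.54 CPM in siFOXA1 cells, against 4.47, 4.96 and 3.25 CPM in siNS cells. In MDA-MB-453 the siTLE3 libraries had 113, 102 and 102 CPM and the siFOXA1 libraries 4.36, 3.53 and 4.84 CPM, against 83.8, 86.8 and 83.9 CPM in siNS cells. In SKBR3 the values were 22.1, 25.8 and 22.9 CPM in siTLE3 cells and 2.37, 3.13 and 3.13 CPM in siFOXA1 cells, against 21.7, 24.4 and 23.6 CPM in siNS cells. Every siFOXA1 library thus lay below every siNS library of its line, while the siTLE3 libraries lay above siNS in T47D and MDA-MB-453 and overlapped it in SKBR3.

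CREB3L1 fell in siFOXA1 cells of all 3 lines, with log2 fold changes of -4.31 (SE 0.10, edgeR adjusted p = 7.48e-16) in MDA-MB-453, -2.98 (SE 0.16, edgeR adjusted p = 6.96e-05) in SKBR3 and -1.66 (SE 0.24, edgeR adjusted p = 6.21e-05) in T47D, where the siFOXA1 level rested on 30, 26 and 34 reads. In siTLE3 cells the rise was 2.80 (SE 0.13, edgeR adjusted p = 1.38e-09) in T47D and 0.31 (SE 0.065, edgeR adjusted p = 0.00240) in MDA-MB-453. The SKBR3 value was 0.033 (SE 0.14, edgeR adjusted p = 0.911). The siTLE3 effect differed between the lines (F test in edgeR on the line-by-siRNA terms together, adjusted p = 4.16e-08), as did the siFOXA1 effect (edgeR adjusted p = 1.94e-07). In whole RNA of a culture, a lower level from fewer expressing cells and one from less RNA per cell cannot be told apart, and this holds for every member below.

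CREB3L2 (BBF2H7), whose mouse counterpart switches on the COPII gene Sec23a in cartilage, was the member that stood higher in siTLE3 cells of every line. In T47D the siTLE3 libraries had 45.9, 40.0 and 37.6 CPM, against 19.9, 21.8 and 19.1 CPM in siNS cells. In MDA-MB-453 the siTLE3 libraries had 75.3, 75.9 and 79.4 CPM, against 40.5, 48.0 and 47.7 CPM in siNS cells. In SKBR3 the siTLE3 libraries had 164, 150.2 and 117 CPM, against 87.4, 88.5 and 53.6 CPM in siNS cells. The groups did not overlap in any line, although siNS 3 of SKBR3, the last value, stood well below the other 2 libraries of its group.

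CREB3L2 rose by 1.03 (SE 0.096, edgeR adjusted p = 8.74e-07) in T47D and by 0.75 (SE 0.077, edgeR adjusted p = 6.23e-06) in MDA-MB-453 siTLE3 cells. The SKBR3 difference of 0.92 (SE 0.23, edgeR adjusted p = 0.0593) was not called. It was called in 5 of 12 alternatives. Among these was the fit without siTLE3 1 and siNS 3, which lay far from their groups, at 0.60 (edgeR adjusted p = 0.000239). Another was a fit with library number as a block (edgeR adjusted p = 1.93e-06). SKBR3 siTLE3 and siNS libraries of numbers 1 and 3 deviated together (correlations 0.721 and 0.805), and those of number 2 did not (-0.367). A difference of the siTLE3 effect between lines was not called (edgeR adjusted p = 0.635). In siFOXA1 cells CREB3L2 averaged 20.8 ± 5.10 CPM in T47D, 86.3 ± 3.64 CPM in SKBR3 and 49.4 ± 2.69 CPM in MDA-MB-453, against 20.3 ± 1.36, 76.5 ± 19.9 and 45.4 ± 4.23 CPM in siNS cells (SD, n = 3 each). None of these 3 siFOXA1 differences was called, with log2 fold changes of 0.030 (SE 0.15), 0.19 (SE 0.20) and 0.13 (SE 0.083), and groups overlapped in each line. The 3 edgeR adjusted p-values were 0.880, 0.539 and 0.231.

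CREB3L4 (AIbZIP), a CREB3L factor known from prostate and breast epithelium, fell in siFOXA1 cells of each line. In T47D it had 94.0, 99.9 and 113 CPM in siTLE3 cells and 40.3, 37.4 and 40.2 CPM in siFOXA1 cells, against 77.4, 70.0 and 75.6 CPM in siNS cells. It rose by 0.46 (SE 0.074, edgeR adjusted p = 0.000137) with siTLE3 and changed by -0.93 (SE 0.073, edgeR adjusted p = 2.35e-07) with siFOXA1, with no overlap between groups. In MDA-MB-453 the siFOXA1 libraries had 147, 143 and 148 CPM, against 174, 175 and 184 CPM in siNS cells, a log2 fold change of -0.28 (SE 0.061, edgeR adjusted p = 0.000937). The MDA-MB-453 siTLE3 libraries averaged 197 ± 5.73 CPM (SD, n = 3) and gave 0.14 (SE 0.059, edgeR adjusted p = 0.0871), which was not called although every one lay above the siNS libraries.

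In SKBR3 siFOXA1 cells CREB3L4 had 64.3, 68.1 and 62.4 CPM, against 91.9, 82.2 and 125 CPM in siNS cells, a log2 fold change of -0.59 (SE 0.15, edgeR adjusted p = 0.0310). The call was lost when siFOXA1 1, 2 or 3 or siNS 1 was left out (edgeR adjusted p between 0.0511 and 0.125), and without siNS 3 the change was -0.42 (edgeR adjusted p = 7.44e-06). SKBR3 siTLE3 cells had 62.6, 82.9 and 89.0 CPM, overlapping siNS, at -0.34 (SE 0.20, edgeR adjusted p = 0.347). The effects of siTLE3 (edgeR adjusted p = 0.0177) and of siFOXA1 (edgeR adjusted p = 0.0105) on CREB3L4 differed between the lines. The CREB3L4 span overlaps JTB and SLC39A1 by 95 and 179 bases on the other strand, and whether reads were counted by strand is not given in the sources used here.

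XBP1, which encodes the factor made from IRE1-spliced mRNA, fell with siFOXA1 in all 3 lines. In T47D siTLE3 cells had 1753, 1912 and 1912 CPM and siFOXA1 cells 552, 577 and 688 CPM, against 1179.9, 1221 and 1246 CPM in siNS cells. In SKBR3 siTLE3 cells had 1860.2, 1623 and 1696 CPM and siFOXA1 cells 635, 726 and 707 CPM, against 1925, 1949 and 2184 CPM in siNS cells. In MDA-MB-453 siTLE3 cells had 3019.7, 3069 and 2994 CPM and siFOXA1 cells 1072, 1021 and 1035 CPM, against 2678, 2812 and 2907 CPM in siNS cells. No siFOXA1 library overlapped siNS in any line, and the siTLE3 libraries lay above siNS in T47D and MDA-MB-453 and below it in SKBR3.

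The XBP1 change in siFOXA1 cells was -1.52 (SE 0.095, edgeR adjusted p = 0.000139) in SKBR3, -1.42 (SE 0.065, edgeR adjusted p = 3.73e-12) in MDA-MB-453 and -1.01 (SE 0.083, edgeR adjusted p = 3.22e-07) in T47D. In siTLE3 cells XBP1 rose by 0.61 (SE 0.062, edgeR adjusted p = 1.88e-06) in T47D, whereas the values of 0.10 (SE 0.062, edgeR adjusted p = 0.231) in MDA-MB-453 and -0.21 (SE 0.13, edgeR adjusted p = 0.363) in SKBR3 were not called. Without siTLE3 1 and siNS 3, left out for lying far from their groups, the SKBR3 siTLE3 value was -0.23 (edgeR adjusted p = 0.00469). Of 12 alternatives this was the only 1 that called it. Both effects differed between the lines, with edgeR adjusted p = 0.000393 for siTLE3 and 0.00396 for siFOXA1.

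**Figure D2:**
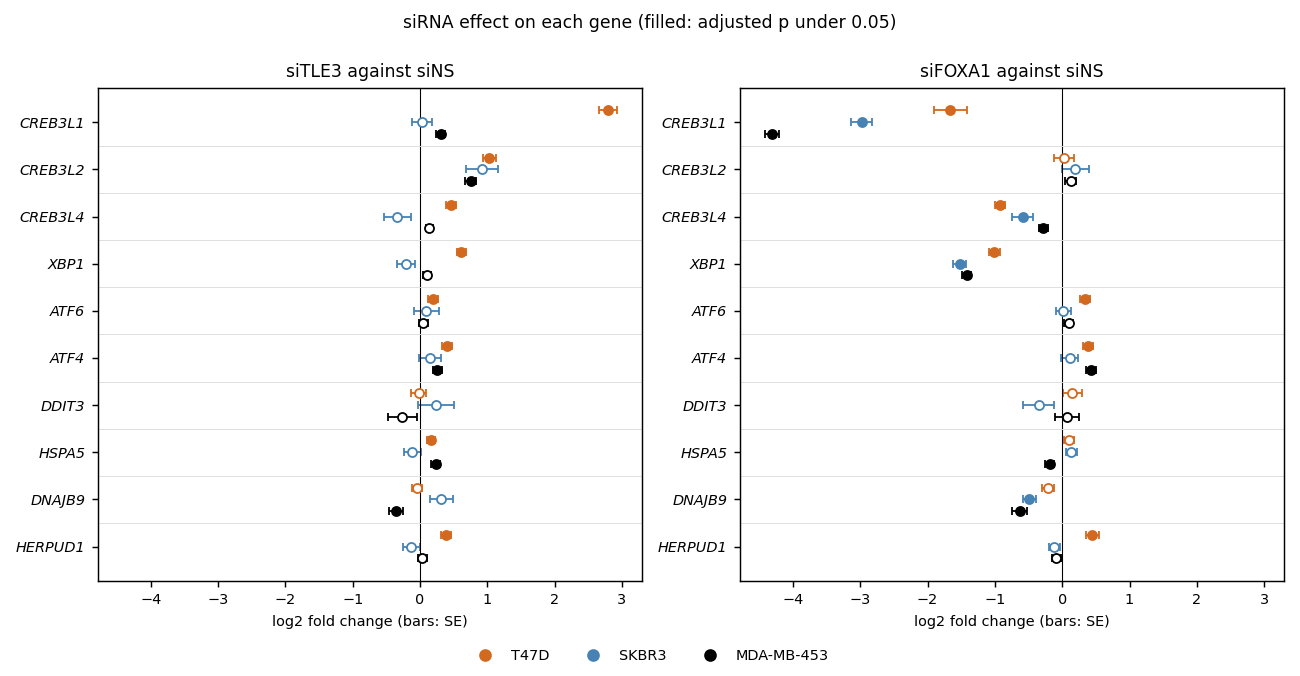
Log2 fold change of each of the 10 genes against siNS with its SE, siTLE3 in the left panel and siFOXA1 in the right, with 1 colour per line; filled points passed an edgeR adjusted p under 0.05. CREB3L1 and XBP1 lie left of 0 in all 3 lines with siFOXA1, and CREB3L2 lies right of 0 in all 3 with siTLE3, where the SKBR3 point is open.

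ATF6 and ATF4, the factors of the other pair of sensor branches, moved by less than 0.5 log2 units wherever they were called against siNS. ATF4 rose with both siRNAs in T47D and MDA-MB-453. In T47D it had 179.8, 192 and 219.9 CPM in siTLE3 cells and 191, 180.2 and 213 CPM in siFOXA1 cells, against 154, 151 and 143 CPM in siNS cells. In MDA-MB-453 it had 416, 419 and 407 CPM in siTLE3 cells and 489.8, 437 and 456 CPM in siFOXA1 cells, against 351, 314 and 367 CPM in siNS cells. All siRNA libraries lay above siNS in both lines. The rises were 0.40 (SE 0.075, edgeR adjusted p = 0.000468) and 0.38 (SE 0.075, edgeR adjusted p = 0.000824) for siTLE3 and siFOXA1 in T47D, and 0.26 (SE 0.067, edgeR adjusted p = 0.00883) and 0.43 (SE 0.071, edgeR adjusted p = 6.22e-05) in MDA-MB-453. In SKBR3 neither difference was called, at 0.14 (SE 0.16, edgeR adjusted p = 0.620) for siTLE3 and 0.11 (SE 0.13, edgeR adjusted p = 0.581) for siFOXA1. Without siTLE3 1 and siNS 3 the first was 0.36 (edgeR adjusted p = 0.00100), and without siNS 3 the second was 0.24 (edgeR adjusted p = 9.92e-05). Each was called in that 1 alternative alone, of 12 and 11.

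ATF6 rose in T47D, where siTLE3 cells averaged 102 ± 4.10 CPM and siFOXA1 cells 114 ± 3.07 CPM, against 89.2 ± 7.23 CPM in siNS cells (SD, n = 3 each). The rise was 0.34 (SE 0.074, edgeR adjusted p = 0.00153) with siFOXA1 and 0.19 (SE 0.069, edgeR adjusted p = 0.0333) with siTLE3. The siTLE3 call was lost without the low-count filter (edgeR adjusted p = 0.052) and without siTLE3 3, siNS 3 or siNS 4, and without siNS 4 the change was 0.13 (edgeR adjusted p = 0.178). In SKBR3 and MDA-MB-453 the 4 ATF6 differences lay between 0.018 and 0.095, none was called, and every pair of groups overlapped. DDIT3 (CHOP), the death-linked target of ATF4, was not called against siNS in any line, with log2 fold changes between -0.35 in SKBR3 siFOXA1 cells and 0.24 in SKBR3 siTLE3 cells. Its counts in SKBR3 were low, with 2.98, 3.60 and 4.55 CPM in siTLE3 cells, 2.61, 2.18 and 2.54 CPM in siFOXA1 cells and 2.77, 2.75 and 3.98 CPM in siNS cells. DDIT3 overlaps MARS by 982 bases on the other strand.

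HSPA5 (BiP), the main ER chaperone and a textbook readout of the response, moved little beside XBP1 and CREB3L1. In MDA-MB-453 it had 611, 672 and 607 CPM in siTLE3 cells and 466, 464 and 469 CPM in siFOXA1 cells, against 500.3, 559 and 539 CPM in siNS cells. It rose by 0.23 (SE 0.068, edgeR adjusted p = 0.0171) with siTLE3 and changed by -0.19 (SE 0.064, edgeR adjusted p = 0.0209) with siFOXA1, and neither siRNA group overlapped siNS. The siTLE3 call was lost without siTLE3 2, and the siFOXA1 call without siFOXA1 2, siFOXA1 3, siNS 2 or siNS 4. In T47D siTLE3 cells HSPA5 averaged 1359 ± 63.9 CPM, against 1219 ± 24.6 CPM in siNS cells (SD, n = 3 each), a rise of 0.16 (SE 0.061, edgeR adjusted p = 0.0430) that was lost without siTLE3 3 or any siNS library, without the low-count filter (edgeR adjusted p = 0.0974) and in the fit of all 9 libraries (edgeR adjusted p = 0.0577). The T47D siFOXA1 value of 0.10 (SE 0.073, edgeR adjusted p = 0.271) and the SKBR3 values of -0.11 (SE 0.12, edgeR adjusted p = 0.601) for siTLE3 and 0.13 (SE 0.082, edgeR adjusted p = 0.292) for siFOXA1 were not called. Without siNS 3 the SKBR3 siFOXA1 value was 0.15 (edgeR adjusted p = 0.00197), called in this 1 of 11 alternatives.

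DNAJB9 (ERdj4), an XBP1 target in mice that serves BiP as a cochaperone, fell with siFOXA1 in MDA-MB-453 and SKBR3. In MDA-MB-453 it had 18.6, 18.4 and 15.7 CPM in siTLE3 cells and 15.3, 15.1 and 12.8 CPM in siFOXA1 cells, against 21.5, 20.8 and 24.9 CPM in siNS cells. In SKBR3 it had 104, 77.8 and 80.7 CPM in siTLE3 cells and 50.1, 48.6 and 49.9 CPM in siFOXA1 cells, against 66.4, 74.4 and 71.7 CPM in siNS cells. In MDA-MB-453 both siRNA groups lay below siNS, and in SKBR3 the siTLE3 libraries lay above siNS and the siFOXA1 libraries below. The siFOXA1 change was -0.63 (SE 0.11, edgeR adjusted p = 0.000118) in MDA-MB-453 and -0.49 (SE 0.10, edgeR adjusted p = 0.0126) in SKBR3, where the call was lost without siFOXA1 1, 2 or 3 or siNS 2. The siTLE3 change was -0.36 (SE 0.10, edgeR adjusted p = 0.0172) in MDA-MB-453, lost without siTLE3 3 or siNS 4, and 0.32 (SE 0.17, edgeR adjusted p = 0.297) in SKBR3, not called. In T47D neither was called, at -0.045 (SE 0.079, edgeR adjusted p = 0.664) for siTLE3 and -0.21 (SE 0.095, edgeR adjusted p = 0.0773) for siFOXA1, and without siFOXA1 3 the second was -0.31 (edgeR adjusted p = 0.00244), a called fall. DNAJB9 overlaps PNPLA8 and THAP5 by 99 and 183 bases on the other strand.

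HERPUD1, an ER membrane protein of ER-associated degradation, rose with both siRNAs in T47D and was not called in the other lines. It had 44.5, 48.8 and 49.1 CPM in T47D siTLE3 cells and 49.0, 44.9 and 55.3 CPM in T47D siFOXA1 cells, against 37.9, 33.0 and 37.8 CPM in siNS cells, with every siRNA library above siNS. The rise was 0.39 (SE 0.075, edgeR adjusted p = 0.000620) with siTLE3 and 0.45 (SE 0.090, edgeR adjusted p = 0.000902) with siFOXA1. In SKBR3 the values were -0.13 (SE 0.13, edgeR adjusted p = 0.565) for siTLE3 and -0.12 (SE 0.086, edgeR adjusted p = 0.377) for siFOXA1, and in MDA-MB-453 0.036 (SE 0.068, edgeR adjusted p = 0.732) and -0.088 (SE 0.071, edgeR adjusted p = 0.331), none called. All SKBR3 siTLE3 and siFOXA1 libraries nevertheless lay below every SKBR3 siNS library, whereas the MDA-MB-453 groups overlapped. Both effects differed between the lines, with edgeR adjusted p = 0.0149 for siTLE3 and 0.00127 for siFOXA1. Over all members 5 of 10 had a siTLE3 effect that differed between lines (12.1% of all genes) and 5 of 10 a siFOXA1 effect that did (33.8%). The siTLE3 count was 2 without T47D siNS 3 and 3 without T47D siTLE3 3.

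Set directly against each other, without siNS, siTLE3 cells had more CREB3L1, XBP1 and CREB3L2 than siFOXA1 cells in all 3 lines. The CREB3L1 difference was 4.47 (SE 0.14, edgeR adjusted p = 9.57e-10) in T47D, 3.03 (SE 0.16, edgeR adjusted p = 9.46e-06) in SKBR3 and 4.64 (SE 0.089, edgeR adjusted p = 5.63e-21) in MDA-MB-453. The XBP1 difference was 1.64 (SE 0.093, edgeR adjusted p = 7.13e-08), 1.33 (SE 0.096, edgeR adjusted p = 4.95e-05) and 1.54 (SE 0.045, edgeR adjusted p = 1.21e-17) in the same order of lines. The CREB3L2 difference was 1.01 (SE 0.15, edgeR adjusted p = 0.000200), 0.74 (SE 0.13, edgeR adjusted p = 0.00458) and 0.64 (SE 0.059, edgeR adjusted p = 4.30e-09). For all 3 genes every siTLE3 library lay above every siFOXA1 library of its line.

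In T47D and SKBR3 4 members were higher in siTLE3 cells than in siFOXA1 cells, where 22.5% and 10.7% of all genes were. Lower in siTLE3 cells were 0 members in both, against 21.8% and 9.24% of all genes, with 1 (HSPA5 in SKBR3) at an unadjusted edgeR p under 0.05 and 0 by DESeq2. In MDA-MB-453 7 were higher (27% of all genes) and 1, ATF4, was lower (26.1%). CREB3L4 was the fourth in T47D, at 1.40 (SE 0.085, edgeR adjusted p = 1.26e-07), and was also higher in MDA-MB-453, at 0.44 (SE 0.050, edgeR adjusted p = 1.41e-07). DNAJB9 was the fourth in SKBR3, at 0.83 (SE 0.13, edgeR adjusted p = 0.00271). HSPA5 separated the siRNAs in MDA-MB-453, at 0.44 (SE 0.051, edgeR adjusted p = 1.66e-07), and in SKBR3 it was at -0.23 (SE 0.080, edgeR adjusted p = 0.0754), not called. The MDA-MB-453 differences of 0.29 (SE 0.11, edgeR adjusted p = 0.0262) for DNAJB9, 0.14 (SE 0.056, edgeR adjusted p = 0.0386) for HERPUD1 and -0.15 (SE 0.051, edgeR adjusted p = 0.0167) for ATF4 were called, but each lost its call when single libraries were left out. These were siTLE3 1, siTLE3 2 or siFOXA1 3 for DNAJB9, siTLE3 1, siTLE3 3 or siFOXA1 3 for HERPUD1 (also lost with DESeq2, adjusted p = 0.0587), and siFOXA1 1 for ATF4, where the change was -0.10 (edgeR adjusted p = 0.125). In SKBR3, leaving out siTLE3 1 gave 7 members in place of 4, adding CREB3L4, DDIT3 and HSPA5, while the count over all genes went from 2836 to 5732. ATF6 was not called in any of the 3 direct comparisons.

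**Figure D3:**
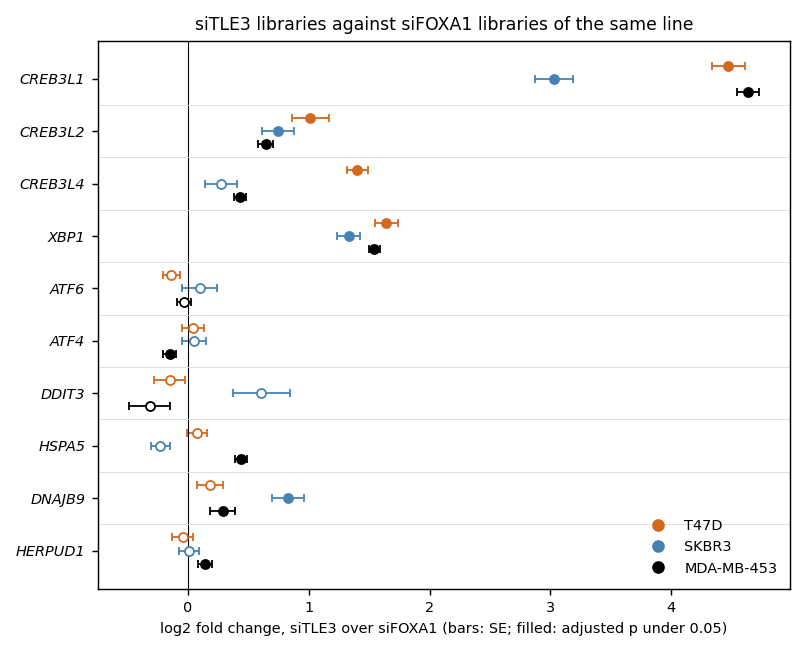
Log2 difference of each of the 10 genes, siTLE3 cells over siFOXA1 cells of the same line, with its SE and 1 colour per line; filled points passed an edgeR adjusted p under 0.05. CREB3L1, CREB3L2 and XBP1 are filled and right of 0 in all 3 lines, and the CREB3L1 differences of 3.03 to 4.64 are the widest of the 10.

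The siNS cells show how unequal the lines were 48 h after transfection with the non-targeting siRNA. Per kilobase of gene length, the scale on which genes can be compared, XBP1 led in every line, with a level of 559 ± 15.4 CPM per kb in T47D, 929 ± 65.8 in SKBR3 and 1288 ± 52.9 in MDA-MB-453 (SD, n = 3 each). The lowest level of the 10 was CREB3L1 in T47D, at 1.57 ± 0.328 CPM per kb, and DDIT3 in SKBR3, at 2.75 ± 0.609 CPM per kb. In MDA-MB-453 the lowest was CREB3L2, at 6.13 ± 0.570 CPM per kb, where CREB3L1 stood at 31.6 ± 0.630. HSPA5 was second in T47D, at 312 ± 6.30 CPM per kb, and came after XBP1 and ATF4 in SKBR3 and MDA-MB-453.

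CREB3L1 had the widest gap between a pair of lines, with 4.47, 4.96 and 3.25 CPM in T47D, 21.7, 24.4 and 23.6 CPM in SKBR3 and 83.8, 86.8 and 83.9 CPM in MDA-MB-453 siNS cells. The difference was -4.34 (SE 0.12, edgeR adjusted p = 8.40e-13) for T47D over MDA-MB-453 and -1.88 (SE 0.12, edgeR adjusted p = 1.37e-06) for SKBR3 over MDA-MB-453. In T47D over SKBR3 it was -2.45 (SE 0.18, edgeR adjusted p = 7.79e-06). T47D siNS cells had more DDIT3 and HSPA5 than both other lines, with DDIT3 at 2.77 (SE 0.20, edgeR adjusted p = 8.21e-06) over SKBR3 and 1.17 (SE 0.18, edgeR adjusted p = 3.87e-05) over MDA-MB-453, and HSPA5 at 0.99 (SE 0.089, edgeR adjusted p = 2.60e-05) and 1.19 (SE 0.066, edgeR adjusted p = 1.47e-09). HERPUD1 and DNAJB9 were highest in SKBR3, where HERPUD1 stood 1.29 (SE 0.12, edgeR adjusted p = 1.05e-05) and DNAJB9 1.64 (SE 0.13, edgeR adjusted p = 5.51e-06) over MDA-MB-453.

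In T47D over SKBR3 9 members were called (2 higher, 7 lower), where 34.4% and 32.5% of all genes were. In T47D over MDA-MB-453 10 were called (4 higher, 6 lower; 39% and 37% of all genes), and in SKBR3 over MDA-MB-453 7 (3 higher, 4 lower; 33.1% and 32.8%). ATF6 differed least, at 0.18 (SE 0.13, edgeR adjusted p = 0.246) for T47D over SKBR3, 0.20 (SE 0.073, edgeR adjusted p = 0.0236) for T47D over MDA-MB-453 and 0.023 (SE 0.14, edgeR adjusted p = 0.895) for SKBR3 over MDA-MB-453. The T47D over MDA-MB-453 call of ATF6 was lost without T47D siNS 2 or 3 or MDA-MB-453 siNS 1 or 2. The CREB3L4 difference of -0.41 (SE 0.15, edgeR adjusted p = 0.0438) for T47D over SKBR3 was lost without the low-count filter (edgeR adjusted p = 0.0532) and without any 1 of the T47D siNS libraries or SKBR3 siNS 1, and was -0.24 (edgeR adjusted p = 0.00631) without SKBR3 siNS 3. For CREB3L2 in SKBR3 over MDA-MB-453, at 0.74 (SE 0.21, edgeR adjusted p = 0.0114), the call was lost without MDA-MB-453 siNS 1. A line and any preparation batch of that line cannot be told apart.

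**Figure D4:**
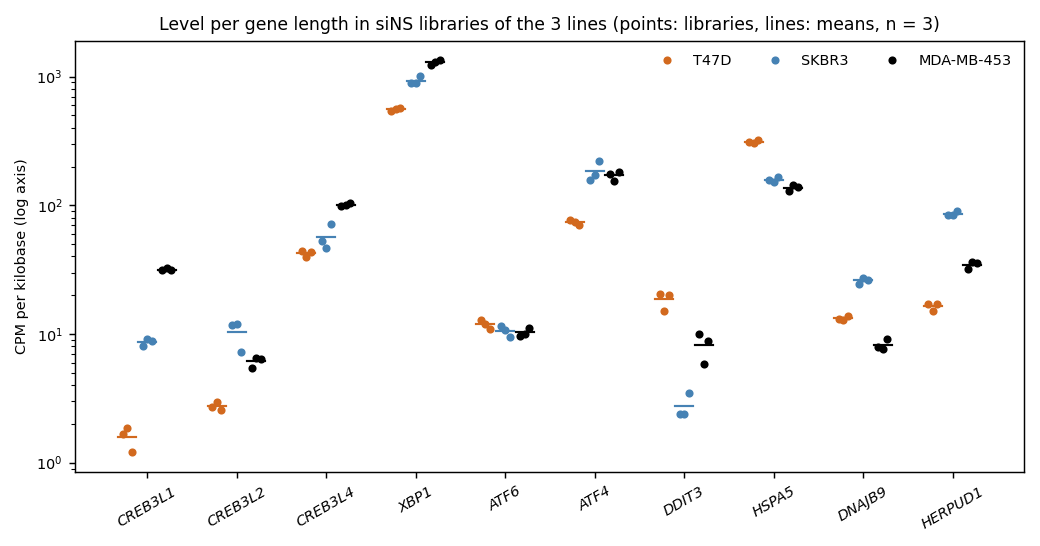
Levels of the 10 genes in the siNS cells of each line, in CPM per kb of deposited gene length on a log axis; points are libraries and bars are means (n = 3 per line). XBP1 is highest in each line, and CREB3L1 is the gene whose level differs most between T47D and MDA-MB-453.

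Across the 9 group means, the order of levels shows which gaps exceed the spread. For XBP1 the order ran from MDA-MB-453 siTLE3 cells at the top (3027 ± 38.0 CPM) to T47D siFOXA1 cells at the bottom (606 ± 72.7 CPM, SD, n = 3 each), and all 3 siFOXA1 groups stood below every siTLE3 and siNS group. Neighbours in that order overlapped for T47D and SKBR3 siTLE3 cells, and for SKBR3 and T47D siFOXA1 cells. For CREB3L1 the order ran from MDA-MB-453 siTLE3 cells (106 ± 6.12 CPM) to T47D siFOXA1 cells (1.33 ± 0.192 CPM). T47D siNS cells, at 4.22 ± 0.880 CPM, stood among the siFOXA1 groups and overlapped MDA-MB-453 siFOXA1 cells, at 4.24 ± 0.664 CPM. For CREB3L2 the top group was SKBR3 siTLE3 cells, at 144 ± 23.8 CPM, and T47D siFOXA1 and siNS cells shared the bottom.

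The genes whose pattern was most like a member's were ranked by Pearson's r of log2(CPM + 1) over the 9 group means, among 8650 genes with a mean of at least 10 CPM in some group and a 2-fold range. The 9 points share 3 lines and 3 siRNAs, so these values describe and carry no test. CREB3L1 came first for XBP1 and XBP1 first for CREB3L1, with r = 0.971. The next 4 for XBP1 were VDAC1 (0.968), FOXA1 (0.957), PAX9 (0.948) and PEX26 (0.945), FOXA1 being the siRNA target itself. For CREB3L1 they were RWDD2A (0.946), PEX26 (0.944), UGDH (0.929) and ESRP2 (0.922).

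The same ranking was made for the other CREB3L genes, HSPA5 and DDIT3. For CREB3L2 the 5 were OSBPL10 (0.983), FYCO1 (0.983), ITPR3 (0.979), FBXL17 (0.973) and CHML (0.97). For CREB3L4 they were MLLT1 (0.977), the lincRNA CTC-503J8.6 (0.97), FOXP1 (0.967), NFATC2IP (0.959) and TRIM26 (0.956). For HSPA5 they were RAD51C (0.989), INTS9 (0.988), MDK (0.982), GPSM1 (0.982) and PHACTR1 (0.981), and for DDIT3 they were THNSL2 (0.996), RBM4 (0.993), CDH1 (0.992), TENC1 (0.99) and the antisense RNA AC091729.9 (0.989). HSPA5 and DDIT3 were alike in that their 3 T47D groups had the 3 highest levels.

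Around the members, 5 lists of pathway genes were followed: stress transducers and proteases, ER chaperones and oxidoreductases, ER-associated degradation and translocation, PERK-ATF4 branch targets, and COPII and ER-Golgi trafficking. COPII coats the vesicles that leave the ER. In MDA-MB-453 siFOXA1 cells 11 of 14 trafficking genes fell and 1 rose, where 23.7% of all genes fell and 23.4% rose. Their median was -0.42 against -0.0062 over all genes tested. The fallen genes included KDELR3, a receptor that returns proteins to the ER, at -2.04 (SE 0.23, edgeR adjusted p = 6.85e-07), the COPII cargo adaptor SEC24D at -1.40 (SE 0.082, edgeR adjusted p = 8.50e-11), the ER exit site scaffold SEC16A at -1.12 (SE 0.062, edgeR adjusted p = 4.58e-11) and KDELR2 at -0.57 (SE 0.067, edgeR adjusted p = 1.14e-06). SEC24D also fell in T47D siFOXA1 cells, at -0.93 (SE 0.083, edgeR adjusted p = 6.74e-07), and in SKBR3 siFOXA1 cells, at -0.99 (SE 0.16, edgeR adjusted p = 0.00492). In T47D siFOXA1 cells 7 of 14 trafficking genes fell and 1 rose, where 26.8% of all genes fell and 26% rose, with a median of -0.17 against 0.0016. SEC16A, at -0.60 (SE 0.084, edgeR adjusted p = 4.73e-05), and SEC23B, at -0.39 (SE 0.064, edgeR adjusted p = 0.000198), were among the fallen. Both also fell in T47D siTLE3 cells, at -0.44 (SE 0.090, edgeR adjusted p = 0.00101) and -0.65 (SE 0.062, edgeR adjusted p = 1.02e-06). There SEC24D fell too, at -0.23 (SE 0.066, edgeR adjusted p = 0.0104), and KDELR3 rose by 0.86 (SE 0.12, edgeR adjusted p = 4.4e-05). In SKBR3 siFOXA1 cells SEC24D was the 1 of 14 trafficking genes that was called, where 8.75% of all genes fell. By DESeq2, 3 of 14 trafficking genes rose and 3 fell in T47D siTLE3 cells, and 1 rose and 3 fell in MDA-MB-453 siTLE3 cells. By edgeR 25.3% of all genes rose and 26.6% fell in the first, and 15.7% and 16.3% in the second.

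SEC24D averaged 26.2 ± 2.35, 28.7 ± 3.40 and 29.8 ± 2.41 CPM in siFOXA1 cells of T47D, SKBR3 and MDA-MB-453, against 49.7 ± 1.37, 58.0 ± 9.50 and 79.2 ± 5.39 CPM in siNS cells (SD, n = 3 each). It was higher in siTLE3 cells than in siFOXA1 cells in each line, by 0.72 (SE 0.088, edgeR adjusted p = 3.78e-05) in T47D, 1.58 (SE 0.16, edgeR adjusted p = 0.000232) in SKBR3 and 1.29 (SE 0.068, edgeR adjusted p = 2.91e-13) in MDA-MB-453. The same held for KDELR3, at 1.31, 1.29 and 2.53, with edgeR adjusted p-values of 8.09e-06, 0.0165 and 3.33e-10. The SKBR3 call of KDELR3 was lost without siFOXA1 1 or siFOXA1 3.

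Chaperones and oxidoreductases changed most often in MDA-MB-453 siFOXA1 cells, where 9 of 15 genes fell and 2 rose (23.7% and 23.4% of all genes), with a median of -0.25 against -0.0062 over all genes. Among the fallen were SDF2L1 at -0.67 (SE 0.077, edgeR adjusted p = 9.50e-07), DNAJB11 at -0.49 (SE 0.066, edgeR adjusted p = 5.53e-06) and CRELD2 at -0.45 (SE 0.067, edgeR adjusted p = 2.07e-05), all partners of HSPA5 or stress-induced ER proteins. MANF, a secreted stress-induced ER protein, rose by 0.61 (SE 0.078, edgeR adjusted p = 3.18e-06). MANF also rose in T47D and MDA-MB-453 siTLE3 cells, by 0.76 (SE 0.092, edgeR adjusted p = 1.09e-05) and 0.71 (SE 0.072, edgeR adjusted p = 5.69e-06), and in T47D siFOXA1 cells, by 0.55 (SE 0.088, edgeR adjusted p = 0.000152). In T47D siTLE3 cells 2 rose and 5 fell of 15 (25.3% and 26.6% of all genes), with HSP90B1 at -0.50 (SE 0.062, edgeR adjusted p = 1.34e-05), and in MDA-MB-453 siTLE3 cells 3 rose and 3 fell (15.7% and 16.3%). In T47D siFOXA1 cells 2 rose and 3 fell (26% and 26.8%). In SKBR3 edgeR called 0 of 15 with siTLE3, with 1 at an unadjusted p under 0.05 and 0 by DESeq2. With siFOXA1 it called 0 of 15 there, with 3 at an unadjusted p under 0.05 and 1 by DESeq2.

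Among degradation and translocation genes, 6 of 14 fell and 1 rose in MDA-MB-453 siFOXA1 cells (23.7% and 23.4% of all genes), with WFS1 at -0.82 (SE 0.083, edgeR adjusted p = 1.58e-07) and SEL1L, the scaffold of the HRD1 ligase, at -0.70 (SE 0.071, edgeR adjusted p = 1.49e-07). In T47D siFOXA1 cells 6 of 14 fell and 1 rose (26.8% and 26%), with WFS1 at -0.70 (SE 0.069, edgeR adjusted p = 1.84e-06). In siTLE3 cells SEL1L fell in T47D, at -0.73 (SE 0.068, edgeR adjusted p = 8.01e-07), and in MDA-MB-453, at -0.80 (SE 0.076, edgeR adjusted p = 3.17e-06). In siTLE3 cells 5 of 14 fell and 1 rose in T47D (26.6% and 25.3% of all genes), and 2 of 14 fell and 1 rose in MDA-MB-453 (16.3% and 15.7%). SKBR3 siFOXA1 cells had 1 called gene of 13, SSR1, at 0.34 (SE 0.094, edgeR adjusted p = 0.0409), a call lost without the low-count filter (edgeR adjusted p = 0.0899), in the fit of all 9 libraries (edgeR adjusted p = 0.199) and without any 1 library of the comparison except siNS 3.

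The PERK-ATF4 targets are stress genes that ATF4 switches on, several of them through amino acid response elements. In T47D siTLE3 cells 7 of 13 rose and 3 fell (25.3% and 26.6% of all genes), with a median of 0.43 against 0.012 over all genes. The risen were led by the ATF-family factor ATF5 at 1.10 (SE 0.089, edgeR adjusted p = 2.07e-07) and PPP1R15A, which restarts translation, at 0.74 (SE 0.11, edgeR adjusted p = 7.64e-05). The fallen were CEBPG at -0.61 (SE 0.075, edgeR adjusted p = 1.31e-05), TRIB3 at -0.33 (SE 0.074, edgeR adjusted p = 0.00201) and ASNS at -0.28 (SE 0.084, edgeR adjusted p = 0.0118). In T47D siFOXA1 cells 6 of 13 rose (26% of all genes) and 0 fell by edgeR, by DESeq2 or at an unadjusted p under 0.05 (26.8% of all genes fell), with a median of 0.23 against 0.0016. DDIT4, an inhibitor of mTORC1, was at 0.76 (SE 0.11, edgeR adjusted p = 5.08e-05). In MDA-MB-453 siFOXA1 cells 6 of 13 rose and 1 fell (23.4% and 23.7% of all genes), with a median of 0.24 against -0.0062, with DDIT4 at 2.09 (SE 0.14, edgeR adjusted p = 8.01e-10) and the secreted glycoprotein STC2 at 1.81 (SE 0.14, edgeR adjusted p = 4.13e-09). In SKBR3 siFOXA1 cells 3 of 13 rose and 2 fell (10.4% and 8.75% of all genes), with a median of -0.021 against -0.00051. DDIT4 at 1.62 (SE 0.12, edgeR adjusted p = 0.000206) and CEBPB at 1.09 (SE 0.13, edgeR adjusted p = 0.00121) were among the risen. The fallen were NUPR1 at -0.92 (SE 0.22, edgeR adjusted p = 0.0219) and TRIB3 at -0.58 (SE 0.11, edgeR adjusted p = 0.00985). In MDA-MB-453 siTLE3 cells 1 of 13, ATF5, rose, by 0.75 (SE 0.097, edgeR adjusted p = 5.06e-05). There 3 fell (15.7% of all genes rose and 16.3% fell), with a median of -0.24 against -0.012. DESeq2 called 2 risen and 3 fallen. DDIT4 is also known to answer other stresses, hypoxia included.

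DDIT4 averaged 23.6 ± 0.365, 56.5 ± 6.38 and 95.0 ± 0.715 CPM in siFOXA1 cells of T47D, SKBR3 and MDA-MB-453, against 13.9 ± 1.94, 18.7 ± 0.114 and 22.5 ± 7.17 CPM in siNS cells (SD, n = 3 each). Against siTLE3 cells of the same line the siFOXA1 cells had more of it in all 3, with log2 differences, siTLE3 over siFOXA1, of -0.90 (SE 0.10, edgeR adjusted p = 1.97e-05) in T47D, -1.46 (SE 0.26, edgeR adjusted p = 0.00409) in SKBR3 and -2.49 (SE 0.071, edgeR adjusted p = 6.45e-18) in MDA-MB-453. DDIT3, the best known gene downstream of ATF4, was not called in any of the 9 comparisons within a line. For siTLE3 over siFOXA1 it was called in some alternatives, 2 of 10 in MDA-MB-453, 1 of 9 in T47D and 1 of 10 in SKBR3.

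Among the transducers, MBTPS2, the site-2 protease that releases ATF6 and the CREB3L factors, fell in siTLE3 cells of T47D, at -1.14 (SE 0.073, edgeR adjusted p = 2.07e-08), and of MDA-MB-453, at -0.85 (SE 0.073, edgeR adjusted p = 1.56e-06). It also fell with siFOXA1 in both, at -0.54 (SE 0.069, edgeR adjusted p = 2.03e-05) and -0.56 (SE 0.071, edgeR adjusted p = 2.47e-06). MBTPS2 averaged 56.3 ± 4.01 CPM in siTLE3 cells and 86.1 ± 2.38 CPM in siFOXA1 cells of T47D, against 125 ± 6.80 CPM in siNS cells (SD, n = 3 each). EIF2AK3, which encodes PERK, rose by 0.94 (SE 0.12, edgeR adjusted p = 1.75e-05) in T47D and 0.51 (SE 0.12, edgeR adjusted p = 0.00647) in MDA-MB-453 siTLE3 cells and by 0.64 (SE 0.12, edgeR adjusted p = 0.000618) in T47D siFOXA1 cells. ERN1, which encodes IRE1, rose in T47D by 0.71 (SE 0.17, edgeR adjusted p = 0.00307) with siFOXA1 and 0.51 (SE 0.16, edgeR adjusted p = 0.0143) with siTLE3, the second call being lost without siTLE3 1, siTLE3 3 or siNS 3. In SKBR3 siTLE3 cells CHAC1, at 0.90 (SE 0.20, edgeR adjusted p = 0.0365), was the 1 gene called among the 61 genes of all 5 lists that were tested, and its call was lost without any 1 library of the comparison except siNS 3. At an unadjusted p under 0.05 there were 7.

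**Figure D5:**
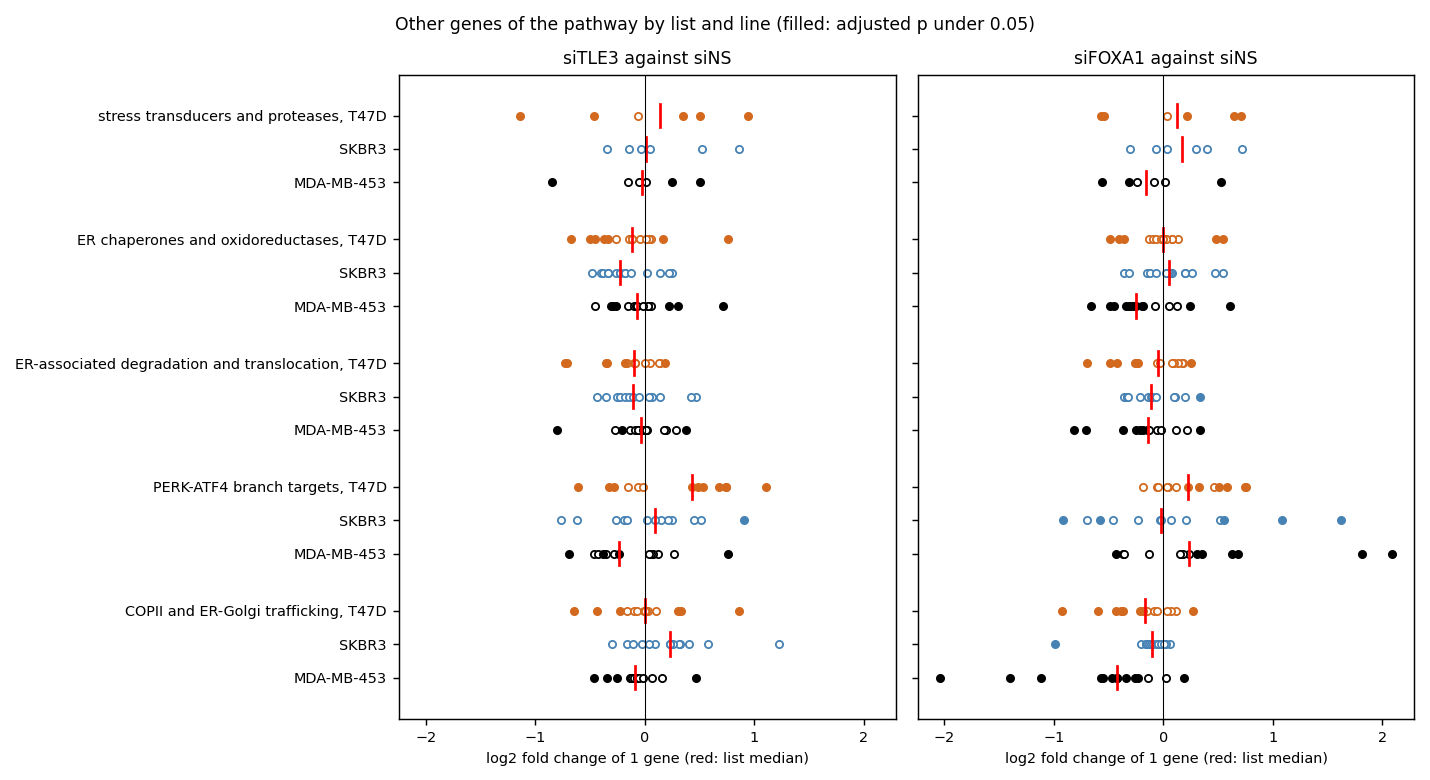
Log2 fold change against siNS of every tested gene of the 5 pathway lists, siTLE3 in the left panel and siFOXA1 in the right, by list and line; each point is a gene, red bars are list medians and filled points passed an edgeR adjusted p under 0.05. The trafficking genes of MDA-MB-453 siFOXA1 cells lie mostly left of 0, with a median of -0.42.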

How the data were processed

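RNA sequencing measured transcripts in 27 libraries of 3 cell lines, 9 groups of 3. Alignment, counting and testing are named only as STAR 2.5, HTSeq 0.6.1 and DESeq2, with build hg19, per the submitters' processing notes; settings and roles are not given in the sources used here. Each siRNA had its own deposited table against siNS (6 in all), with whole-number read counts per gene and the gene length beside 72 columns of FPKM and normalised values per library, which were not used. Only the deposited read counts and, for levels per kilobase, the gene length were used. Both tables of a line held identical siNS counts (0 values differed). A library keeps its column's number, which ran from 1 to 3 except in MDA-MB-453 siNS (1, 2 and 4), T47D siTLE3 (1, 3 and 4) and T47D siNS (2, 3 and 4). Columns of those 3 groups were assigned to a group and not to a labelled replicate.

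Fits used R 4.3.3 and edgeR 4.0.16 (TMM, filterByExpr, glmQLFTest, 2-sided, n = 3 per group), with Benjamini-Hochberg adjustment over all genes tested and a threshold of 0.05. The SE is the size of the log2 fold change divided by the square root of F. Levels are CPM with TMM factors over all 27 libraries, except those of the marker genes, which use library totals. The fit was tested on simulated counts. The alternatives tried were no low-count filter, RLE normalisation, DESeq2 1.42.0, all 9 libraries of a line in 1 fit, a replicate block where 2 groups carry labelled numbers, leaving out each library, and leaving out the 2 SKBR3 libraries that stood apart. Same-numbered libraries of SKBR3 siTLE3 and siFOXA1 deviated together only weakly (correlations 0.287, 0.162 and 0.114), and that block changed no member's call. Replicate pairs differed by more than sampling noise (chi-square per gene 2.77 to 96.9), so none was counted as 1 sample. The members, pathway lists and named-gene rule (all members, the targeted genes, up to 4 called genes per list with the largest change, and the 5 genes most like a member) were chosen with earlier results of these data known. Figures used Python 3.11.15 and matplotlib 3.10.9. Promoters came from RefSeq on GRCh38.p14, another build than that of the counts, and were matched by symbol.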

Additional observations from a re-analysis of the deposited data

Results flagged for a closer look

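For 5 members the siTLE3 effect differed between the 3 lines in edgeR's F test on the line-by-siRNA terms. The adjusted p was 4.157e-08 for CREB3L1, 0.0003934 for XBP1, 0.01487 for HERPUD1, 0.0177 for CREB3L4 and 0.04997 for DNAJB9. CREB3L1 had siTLE3 effects of 2.80 (SE 0.13) in T47D, 0.31 (SE 0.065) in MDA-MB-453 and 0.033 (SE 0.14) in SKBR3, and XBP1 had 0.61 (SE 0.062), 0.10 (SE 0.062) and -0.21 (SE 0.13). The DNAJB9 value sits at the threshold and passed in 6 of 22 alternatives.

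For 5 members the siFOXA1 effect differed between the lines by the same edgeR test. The adjusted p was 1.936e-07 for CREB3L1, 0.00127 for HERPUD1, 0.003955 for XBP1, 0.01054 for CREB3L4 and 0.04278 for HSPA5. CREB3L1 had siFOXA1 effects of -1.66 (SE 0.24) in T47D, -2.98 (SE 0.16) in SKBR3 and -4.31 (SE 0.10) in MDA-MB-453. HERPUD1 had 0.45 (SE 0.090), -0.12 (SE 0.086) and -0.088 (SE 0.071) in the same order of lines. The HSPA5 value passed in 6 of 21 alternatives.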

How the results depend on the processing

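In SKBR3, where siTLE3 1 and siNS 3 stood apart from their groups, counts of calls moved most. For siTLE3 against siNS, edgeR called 814 genes and 0 members, whereas DESeq2 called 1651 and 1, the fit of all 9 SKBR3 libraries 1962 and 1, the replicate block 3698 and 1 (CREB3L2, edgeR adjusted p = 1.93e-06), and the fit without both libraries 4161 and 3; without the low-count filter 1 member was called. Leaving out each library gave 107 to 762 genes there, 1266 to 6675 genes and 2 to 6 members for siFOXA1 against siNS, and 1336 to 5732 genes and 4 to 7 members for siTLE3 against siFOXA1. The siTLE3 effect differed between lines for 1983 genes, against 3271 with DESeq2, 4361 without both libraries, and 1287 to 2464 genes and 2 to 5 members leaving out each library. The replicate block gave 2126 genes and 3 members for SKBR3 siFOXA1, with CREB3L4 no longer called (edgeR adjusted p = 0.0604). Deviations of same-numbered SKBR3 siFOXA1 and siNS libraries had correlations of 0.262, -0.218 and 0.0638. Those of siTLE3 and siNS had 0.721, -0.367 and 0.805, so numbers 1 and 3 deviated together and number 2 did not. Numbers of MDA-MB-453 siTLE3 and siFOXA1 did not pair (-0.0898 to 0.0523). For comparisons with T47D siTLE3, T47D siNS or MDA-MB-453 siNS no block could be set, because their columns carry no labelled number.

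The sign turned for some differences near 0, none of them called by edgeR. Without both SKBR3 libraries ATF6 was at -0.16 with siTLE3, and without the low-count filter HERPUD1 was at -0.00487 for SKBR3 siTLE3 over siFOXA1. Leaving out each library, the log2 fold changes with siTLE3 were -0.15 to 0.067 for DDIT3 and -0.11 to 0.031 for DNAJB9 in T47D, -0.065 to 0.22 for ATF6 and -0.014 to 0.094 for CREB3L1 in SKBR3, and -0.014 to 0.071 for HERPUD1 in MDA-MB-453. With siFOXA1 they were -0.14 to 0.22 for CREB3L2 in T47D, -0.024 to 0.32 for CREB3L2 and -0.081 to 0.096 for ATF6 in SKBR3, and -0.12 to 0.25 for DDIT3 in MDA-MB-453. For siTLE3 over siFOXA1 they were -0.044 to 0.10 for ATF4 and -0.12 to 0.030 for HERPUD1 in T47D, -0.069 to 0.21 for ATF6, -0.017 to 0.13 for ATF4 and -0.011 to 0.021 for HERPUD1 in SKBR3, and -0.068 to 0.0041 for ATF6 in MDA-MB-453. For SKBR3 over MDA-MB-453 siNS cells they were -0.042 to 0.14 for ATF6 and -0.028 to 0.19 for ATF4. The causes were not tested. Of the values for single genes under alternatives, 2964 kept their direction and side of the threshold, 171 lost a call, 29 gained one and 25 turned sign. Counting error weighs on CREB3L1 in T47D and SKBR3 siFOXA1 cells, with as few as 26 and 40 reads in a library, and on DDIT3 in SKBR3, with as few as 44.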
